A study of Mus musculus with 3 samples.

Results

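The genes described here are 10 of the 32285 mouse genes listed in the count matrices, chosen by symbol as genes of the ATF4 stress response and of serine metabolism. They are the transcription factors Atf4, Atf5 and Ddit3, the serine synthesis enzymes Phgdh and Psat1, the mitochondrial one-carbon enzymes Shmt2 and Mthfd2, the asparagine synthetase Asns, and the regulators Trib3 and Sesn2. Their transcripts were measured by Visium, in which a 10 µm cryosection lies on an array of barcoded spots that capture polyadenylated RNA from the tissue they touch. The data hold 1 heart section from each of 3 conditions in C57BL/6 mice of 8 weeks. The sham mouse received vehicle by gavage for 7 days and then an operation in which a needle was passed without ligation. The I/R mouse received the same vehicle, 30 min of ligation of the left anterior descending coronary artery (LAD) and 24 h of reperfusion. The SBP mouse received Shexiang Baoxin Pill, a traditional Chinese medicine that the labels call MUSKARDIA, on the 7 days before the same ligation and reperfusion. The 3 mice share the strain and the gavage, and the labels name no altered gene.

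ATF4 is the transcription factor of the integrated stress response. Kinases that sense amino acid shortage, heme deficiency, double-stranded RNA or unfolded protein phosphorylate the initiation factor eIF2α, which slows translation in general and favours translation of Atf4 mRNA, so that the mRNA level is only part of the regulation of the protein. ATF4 induces genes of amino acid synthesis and uptake, and in muscle and heart a mitochondrial defect is known to induce the serine and one-carbon enzymes, which make serine from a glycolytic intermediate and pass its carbon to folate.

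The sham, I/R and SBP sections kept 2234, 2082 and 1960 spots, which held 25118258, 30238530 and 21631280 unique molecular identifiers (UMIs), each standing for 1 captured transcript molecule. Levels are given as UMIs of a gene per 1000000 UMIs of the section (CPM) with exact Poisson 95% intervals, and ratios between sections on the log2 scale with exact conditional binomial 95% intervals. No condition has a second section, so the intervals cover counting error only, no test between conditions was possible, and animal, section plane and condition cannot be told apart. All 6 cardiomyocyte markers (Myh6, Tnnt2, Tnni3, Ttn, Pln, Actc1) were detected in every section, with summed levels from 20289 CPM in I/R to 26526 CPM in sham. The mitochondrial genome took from 44.3% of UMIs in I/R to 48.6% in sham. A spot holds several cells, and fewer cells of a type cannot be told apart from less RNA per cell.

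The genes lie on 8 chromosomes of GRCm38. The factors are Atf4 (ENSMUSG00000042406) chr15:80255184-80257541, Atf5 (ENSMUSG00000038539) chr7:44812256-44816658 and Ddit3 (ENSMUSG00000025408) chr10:127290774-127296288. The serine and one-carbon enzymes are Phgdh (ENSMUSG00000053398) chr3:98313170-98339990, Psat1 (ENSMUSG00000024640) chr19:15904678-15947337, Shmt2 (ENSMUSG00000025403) chr10:127517123-127522444 and Mthfd2 (ENSMUSG00000005667) chr6:83305691-83325908. The others are Asns (ENSMUSG00000029752) chr6:7675169-7693254, Trib3 (ENSMUSG00000032715) chr2:152337422-152344032 and Sesn2 (ENSMUSG00000028893) chr4:132492032-132510501. The symbol Ddit3 is also carried by ENSMUSG00000116429, which lies within the first locus and had 0 UMIs in all 3 sections. Ddit3 overlaps the end of Mars on the opposite strand, Atf5 overlaps Nup62 and Il4i1, Shmt2 overlaps Ndufa4l2, and Sesn2, Mthfd2, Psat1 and Ddit3 also overlap unnamed gene models (Gm12981, Gm43890, Gm3329 and Gm4189), so the counts of these genes are less certain at the overlaps.

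ATF4 binds with a C/EBP partner to a composite element, searched here as TGATGNAA on both strands of the RefSeq promoters (GRCm38.p6, from 250 bases before a gene's start to 50 after it). All 10 genes matched the RefSeq table by symbol, with 12 promoters between them. The letters occurred in the promoters of 2 of the 10 genes, Asns and Trib3, and in 1304 of all 32851 promoters, or 3.97%. The stretch of the Asns promoter that holds them is shown, because Asns is the gene with a match before its RefSeq start and was among the genes at higher level in I/R. It lies at chr6:7693214-7693243 on the minus strand and is printed 5′ to 3′ along the gene, with the element in capitals at positions -23 to -16 from the start.

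Asns promoter: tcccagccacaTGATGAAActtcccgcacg

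GENCODE starts Asns further upstream, so that this stretch lies inside its gene model. In Trib3 the reverse strand held the element at positions 15 to 22 past the RefSeq start. A match of letters is a description and not a binding site, no other motif was searched, and elements outside these windows would not be seen.

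Among the transcription factors, Atf4 was at 41.1 CPM (38.6 to 43.7, 1032 UMIs) in sham, 65.0 CPM (62.1 to 67.9, 1965 UMIs) in I/R and 46.6 CPM (43.8 to 49.6, 1008 UMIs) in SBP. The I/R section was the highest and its interval met neither of the others. The log2 ratio of Atf4 was 0.66 (0.55 to 0.77) for I/R over sham, -0.48 (-0.59 to -0.37) for SBP over I/R and 0.18 (0.055 to 0.31) for SBP over sham. Atf5, a related factor known to induce mitochondrial chaperones, was at 23.2 CPM (21.4 to 25.2, 584 UMIs) in sham, 22.5 CPM (20.9 to 24.3, 681 UMIs) in I/R and 24.5 CPM (22.5 to 26.7, 530 UMIs) in SBP, and these intervals all overlapped. Its log2 ratio was -0.046 (-0.21 to 0.12) for I/R over sham and 0.12 (-0.045 to 0.29) for SBP over I/R. Ddit3, which encodes CHOP, a factor of prolonged endoplasmic reticulum (ER) stress, was at 15.8 CPM (14.3 to 17.4, 396 UMIs) in sham, 18.0 CPM (16.5 to 19.6, 544 UMIs) in I/R and 17.9 CPM (16.2 to 19.8, 387 UMIs) in SBP. The intervals of Ddit3 also overlapped. Its log2 ratio of I/R over sham was 0.19 (0.0010 to 0.38) with all UMIs as denominator and -0.039 with TMM factors, so that its direction depended on the scaling, and that of SBP over I/R was -0.0080 (-0.20 to 0.18).

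The serine synthesis enzymes were among the genes with the widest gap between I/R and sham. Phgdh, the dehydrogenase of the first step, was at 2.47 CPM (1.89 to 3.16, 62 UMIs) in sham, 7.11 CPM (6.19 to 8.13, 215 UMIs) in I/R and 3.65 CPM (2.89 to 4.55, 79 UMIs) in SBP. Psat1, the aminotransferase of the next step, was at 3.66 CPM (2.95 to 4.49, 92 UMIs) in sham, 10.5 CPM (9.39 to 11.7, 318 UMIs) in I/R and 7.12 CPM (6.04 to 8.34, 154 UMIs) in SBP. For both enzymes I/R was the highest section with an interval apart from the others, while the sham and SBP intervals overlapped for Phgdh and not for Psat1. The log2 ratio of I/R over sham was 1.53 (1.11 to 1.96) for Phgdh and 1.52 (1.18 to 1.87) for Psat1. That of SBP over I/R was -0.96 (-1.35 to -0.58) for Phgdh and -0.56 (-0.85 to -0.28) for Psat1, and that of SBP over sham was 0.57 (0.067 to 1.07) and 0.96 (0.58 to 1.35).

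Of the mitochondrial enzymes that pass on the carbon of serine, Mthfd2, a methylene-tetrahydrofolate dehydrogenase, was at 3.26 CPM (2.60 to 4.05, 82 UMIs) in sham, 11.5 CPM (10.3 to 12.8, 348 UMIs) in I/R and 4.25 CPM (3.43 to 5.22, 92 UMIs) in SBP. Its log2 ratio of 1.82 (1.47 to 2.18) for I/R over sham, or 3.53-fold, and of -1.44 (-1.78 to -1.10) for SBP over I/R had the largest size of the 10 genes in both comparisons. The sham and SBP intervals of Mthfd2 overlapped, with a log2 ratio of 0.38 (-0.064 to 0.83) for SBP over sham. Shmt2, the serine hydroxymethyltransferase, was at 14.9 CPM (13.4 to 16.5, 374 UMIs) in sham, 21.1 CPM (19.5 to 22.8, 638 UMIs) in I/R and 17.2 CPM (15.5 to 19.1, 373 UMIs) in SBP. Its log2 ratio was 0.50 (0.32 to 0.69) for I/R over sham and -0.29 (-0.48 to -0.10) for SBP over I/R, so that it differed in the same directions as Mthfd2 by a smaller amount. For SBP over I/R the median of all genes with at least 50 UMIs was -0.17. The Shmt2 interval contained that median, and the Mthfd2 interval lay below it.

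Asns, which makes asparagine from aspartate and glutamine and whose promoter stretch is shown above, was at 2.27 CPM (1.72 to 2.94, 57 UMIs) in sham, 6.48 CPM (5.61 to 7.46, 196 UMIs) in I/R and 3.42 CPM (2.69 to 4.29, 74 UMIs) in SBP. The log2 ratio was 1.51 (1.08 to 1.97) for I/R over sham, -0.92 (-1.33 to -0.53) for SBP over I/R and 0.59 (0.074 to 1.12) for SBP over sham. Again I/R stood above both other sections. Trib3, a pseudokinase that restrains ATF4, was at 1.47 CPM (1.04 to 2.03, 37 UMIs) in sham, 1.82 CPM (1.37 to 2.37, 55 UMIs) in I/R and 1.57 CPM (1.09 to 2.20, 34 UMIs) in SBP. Sesn2, a leucine sensor upstream of mTORC1, was at 1.55 CPM (1.10 to 2.12, 39 UMIs) in sham, 2.25 CPM (1.75 to 2.85, 68 UMIs) in I/R and 1.62 CPM (1.13 to 2.25, 35 UMIs) in SBP. The intervals of these last genes overlapped between all sections. The log2 ratio of I/R over sham was 0.30 (-0.32 to 0.95) for Trib3 and 0.53 (-0.054 to 1.14) for Sesn2, so that a difference was not detectable at this depth.

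**Figure D1:**
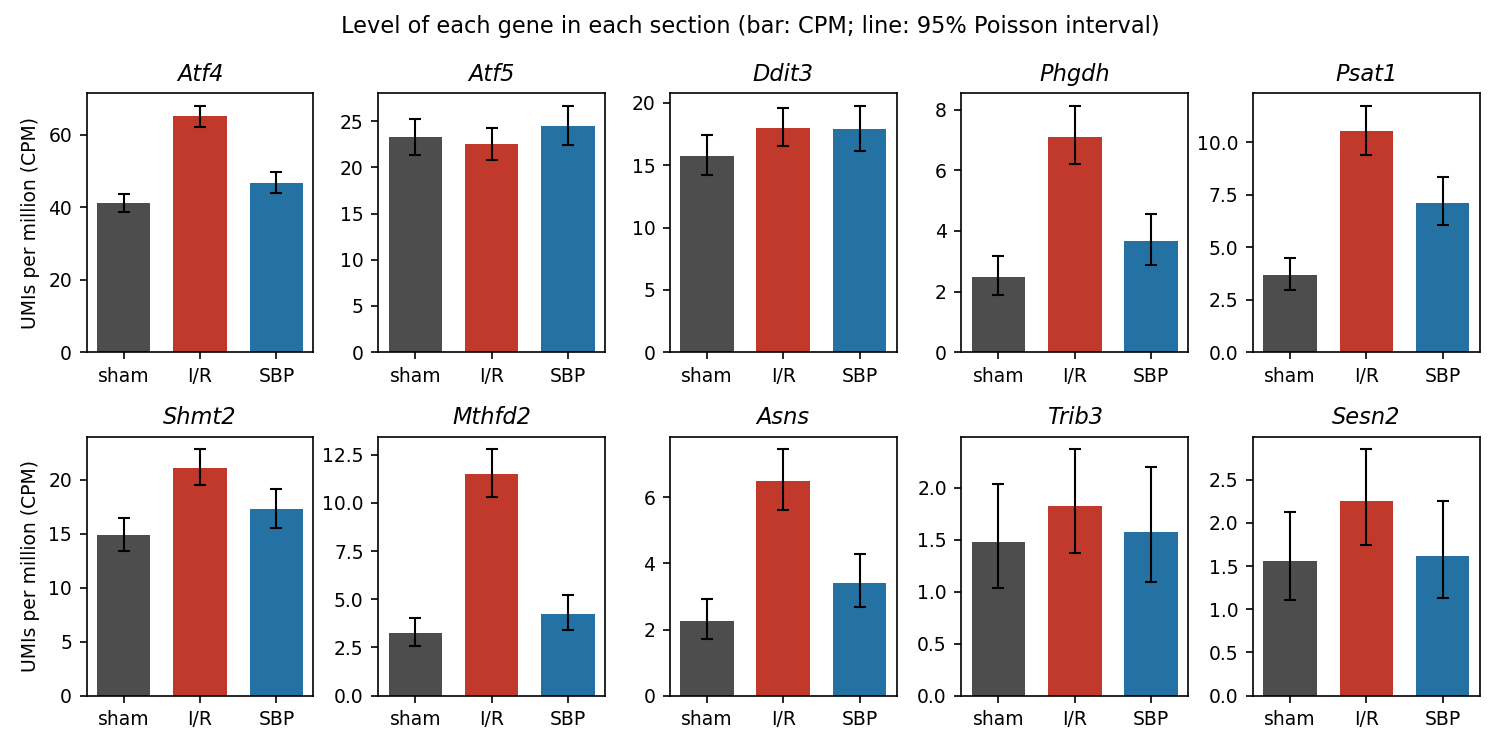
Bars give the level of each gene in CPM in the sham, I/R and SBP sections (1 section each), and lines the 95% Poisson interval. Atf4, Phgdh, Psat1, Shmt2, Mthfd2 and Asns were highest in I/R with an interval apart from the other sections, while the intervals of Atf5, Ddit3, Trib3 and Sesn2 overlapped.

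All 10 genes had the 50 UMIs asked of a gene in each pair of sections, and a gene was counted as past the fold when its levels differed by at least 1.5 times. For I/R over sham, 5 of the 10 genes were past the fold and higher (Atf4, Phgdh, Psat1, Mthfd2, Asns) and 0 were lower, where 23.2% of the 12231 genes counted were higher. The median log2 ratio was 0.60 over the 10 genes and 0.24 over all genes. TMM factors moved the median of all genes from 0.24 to 0.011. Under them 4 of the 10 genes were past the fold, Atf4 at 0.43 no longer being among them, where 13.0% of all genes were. Of all genes past the fold in either direction, 86.9% were higher with all UMIs as denominator, 75.3% without mitochondrial genes, 58.8% with TMM factors and 57.7% with median-of-ratios factors.

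For SBP over I/R, 3 of the 10 genes were past the fold and lower (Phgdh, Mthfd2, Asns), where 13.8% of the 12151 genes counted were lower, and 0 were higher, where 1.95% of all were. The median was -0.48 over the 10 genes and -0.17 over all genes. With TMM factors 3 of the 10 genes were lower, where 8.48% of all genes were, and of all genes past the fold the share that was higher went from 12.4% to 32.8% (33.4% with median-of-ratios factors).

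For SBP over sham, Psat1 and Asns were past the fold and higher, 2 of 10, where 5.31% of the 11768 genes counted were. The median was 0.20 over the 10 genes and 0.082 over all genes. The share higher of all genes past the fold was 65.7% with all UMIs as denominator, 53.2% without mitochondrial genes, 51.4% with TMM factors and 50.9% with median-of-ratios factors. Under TMM factors Psat1 alone of the 10 genes was past the fold and higher, where 4.01% of all genes were. Each section enters a pair of these comparisons, so the ratios are not independent of each other. Added up, the 10 genes took 109.7 CPM (106 to 114) in sham, 166 CPM (162 to 171) in I/R and 128 CPM (123 to 133) in SBP, and Atf4 contributed the most UMIs in every section.

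Cell type markers differed between the same sections. The summed level of the 6 macrophage and monocyte markers (C1qb, Adgre1, Ms4a7, Ccr2, Cd14, Vcan) was 305 CPM in I/R, against 196 CPM in sham and 202 CPM in SBP, with 5 of 6 past the fold and higher for I/R over sham and 5 of 6 lower for SBP over I/R. The 4 neutrophil markers (Csf3r, S100a8, S100a9, Retnlg) were at 236 CPM in I/R, against 27.2 CPM in sham and 115 CPM in SBP, with 4 of 4 higher and 4 of 4 lower in these comparisons. All of these markers were detected in every section, and their part in the levels of the 10 genes was not tested.

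**Figure D2:**
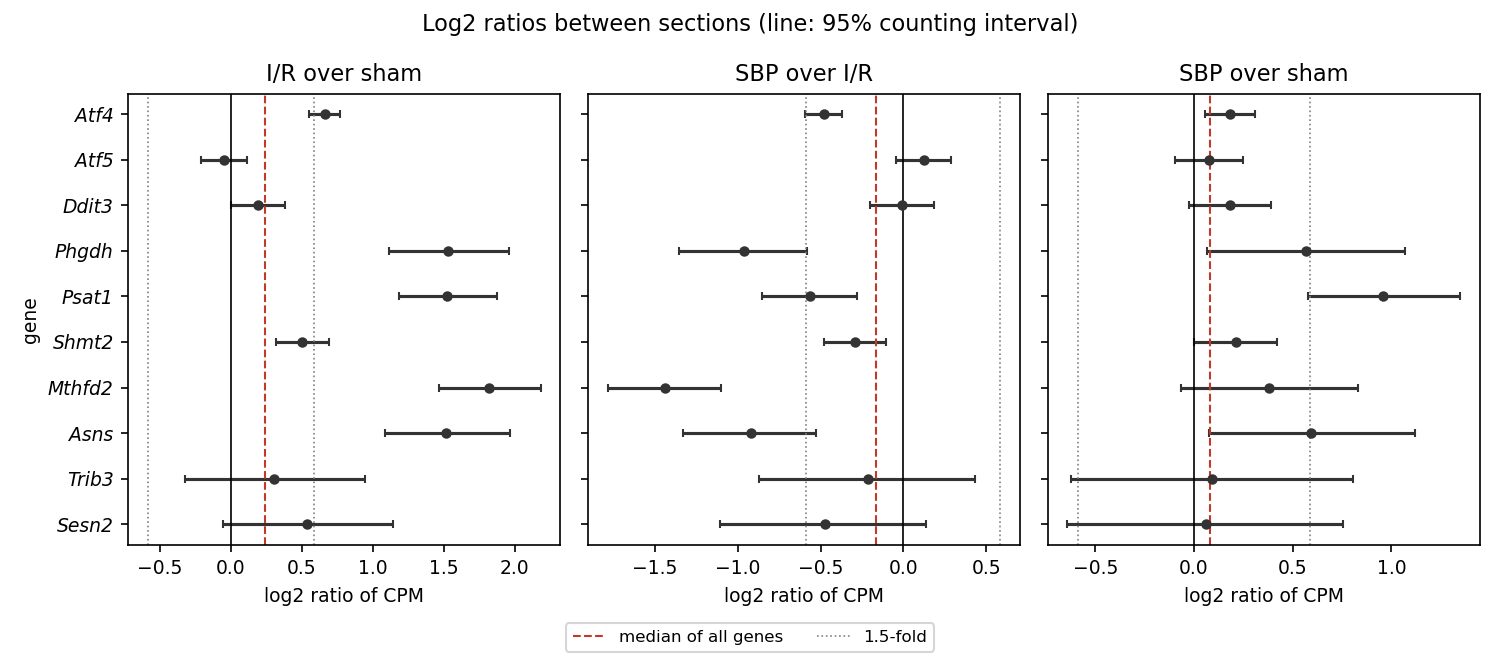
Points give the log2 ratio of CPM of each gene for I/R over sham, SBP over I/R and SBP over sham, and lines the 95% interval of counting. The dashed line is the median of all genes with at least 50 UMIs (0.24, -0.17 and 0.082) and dotted lines mark 1.5-fold. Mthfd2 lies farthest from the median of all genes in the first panels, at 1.82 and -1.44, and the direction of Ddit3 for I/R over sham depended on the scaling.

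The shares of spots with a UMI were compared at equal depth, with each spot thinned at random to 6500 UMIs and 132 shallower sham spots, 202 I/R spots and 213 SBP spots left out. A UMI of any of the 10 genes was found in 47.5% (45.3 to 49.6) of sham spots, 55.2% (52.9 to 57.4) of I/R spots and 51.1% (48.7 to 53.5) of SBP spots, with exact binomial intervals. Before thinning these shares were 64.7%, 80.2% and 68.9%. Spots with UMIs of at least 3 of the 10 genes made up 1.95% (1.40 to 2.64) of sham, 7.18% (6.05 to 8.44) of I/R and 3.21% (2.43 to 4.14) of SBP, or 41, 135 and 56 spots. The most genes found together in a thinned spot were 6 in I/R, in 1 spot, and 4 in each of the other sections. Before thinning, the highest number of UMIs of the 10 genes in a single spot was 32 in I/R, 12 in sham and 11 in SBP.

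Gene by gene, Atf4 was found in 21.8%, 30.3% and 24.2% of the thinned spots of sham, I/R and SBP (33.2%, 52.4% and 36.7% before thinning), and Mthfd2 in 1.90%, 6.33% and 2.52% (3.27%, 13.5% and 4.13% before thinning). The share was highest in I/R also for Psat1 (2.19%, 5.27% and 3.84%), Phgdh (1.57%, 4.04% and 2.06%), Asns (1.47%, 3.56% and 1.77%) and Shmt2 (9.13%, 12.2% and 11.0%). Atf5 was found in 13.3%, 12.8% and 13.0% and Ddit3 in 9.37%, 10.8% and 10.6%, shares whose intervals overlap. As a measure of free RNA, a UMI of any of 8 genes of other organs (among them Alb, Ins1, Umod and Sftpc) was found in 0.238%, 1.38% and 1.72% of these spots. Alb was the only one of them with UMIs in I/R, with 446 UMIs against 11 in sham and 89 in SBP, so that this measure rests mostly on 1 gene whose level differed between the sections. Trib3 was found in 0.999%, 0.904% and 0.458% and Sesn2 in 0.809%, 1.49% and 0.916%, so that Trib3 in I/R and SBP and Sesn2 in SBP were at or below that background. These shares are not read as expression. Since the background rests mostly on Alb, they do not show that expression was absent either. Sesn2 in I/R and, in SBP, Asns, Phgdh and Mthfd2 lay above that background with intervals that overlapped its own. This comparison holds for the share of spots only. By summed level the genes of other organs were at 14.7 CPM in I/R, above Asns (6.48), Phgdh (7.11), Psat1 (10.5) and Mthfd2 (11.5).

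Ankrd1 encodes a cardiac ankyrin repeat protein of the sarcomere that is known to rise in stressed and injured cardiomyocytes. Spots were called Ankrd1-high when Ankrd1 per 10000 UMIs was above 27.0, the 95th percentile of the sham spots, which by construction took 112 sham spots (5.01%) and also took 479 I/R spots (23.0%) and 326 SBP spots (16.6%). The summed level of the 10 genes in Ankrd1-high against other spots was 164 CPM (146 to 184) against 105 CPM (101 to 109.6) in sham. It was 203 CPM (193 to 213) against 153 CPM (148 to 158) in I/R and 176 CPM (163 to 189.7) against 117 CPM (112 to 122) in SBP. In every section the Ankrd1-high spots were the higher class, with a log2 ratio of 0.41 (0.32 to 0.50) in I/R, 0.64 (0.46 to 0.81) in sham and 0.59 (0.46 to 0.71) in SBP.

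At the 95th percentile of sham, Phgdh, Psat1, Mthfd2 and Asns were past the fold and higher in Ankrd1-high spots of every section. In sham, 10 Asns UMIs lay in these spots. Phgdh and Asns had log2 ratios of 0.52 and 0.49 in I/R without mitochondrial genes, short of the fold. At the 99th percentile of sham they were at 0.44 (-0.16 to 0.996) and 0.30 (-0.35 to 0.90) in I/R. Psat1 and Mthfd2 stayed past the fold in I/R at these settings. The Asns interval reached 0 in SBP at the 90th percentile (-0.11 to 1.33). That of Mthfd2 did in sham at the 99th (-1.38 to 2.52). The level of Phgdh in Ankrd1-high against other spots was 10.8 against 1.80 CPM in sham, 9.67 against 6.16 CPM in I/R and 7.40 against 2.82 CPM in SBP. Its levels in Ankrd1-high spots overlapped between the sections, with a log2 ratio of -0.17 (-0.89 to 0.62) for I/R over sham, whereas in the other spots that ratio was 1.77 (1.26 to 2.31). For Mthfd2 the levels were 8.13 against 2.88 CPM in sham, 17.6 against 9.24 CPM in I/R and 8.93 against 3.22 CPM in SBP. Mthfd2 was higher in I/R than in sham within both classes, with log2 ratios of 1.12 (0.35 to 1.99) and 1.68 (1.28 to 2.10), and lower in SBP than in I/R within both, with -0.98 (-1.56 to -0.44) and -1.52 (-1.97 to -1.09). The other spots of I/R also include spots with high levels of injury genes, which are separated further below. For Psat1 they were 9.76 against 3.18 CPM in sham, 17.0 against 8.11 CPM in I/R and 15.6 against 5.25 CPM in SBP, and for Asns 5.42 against 2.02 CPM, 8.69 against 5.66 CPM and 6.12 against 2.82 CPM.

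Atf4 was at 69.4 against 38.8 CPM in sham, 81.6 against 58.8 CPM in I/R and 61.7 against 43.2 CPM in SBP. Between these classes Atf4 had a log2 ratio of 0.47 (0.34 to 0.61) in I/R, 0.51 (0.30 to 0.72) in SBP and 0.84 (0.56 to 1.11) in sham. At the 99th percentile of sham the Atf4 interval reached 0 in I/R, at 0.19 (-0.014 to 0.38), and in SBP, at 0.33 (-0.017 to 0.66). Atf5 had a ratio of 0.0038 (-0.48 to 0.45) in sham against 0.40 (0.17 to 0.64) in I/R and 0.34 (0.031 to 0.64) in SBP. At this setting its intervals lay above 0 in the ligated hearts alone, but this depended on the setting. In SBP the interval reached 0 without mitochondrial genes (-0.048 to 0.56) and at the 90th (-0.016 to 0.52) and 99th (-0.14 to 0.80) percentiles of sham. In I/R it reached 0 at the 99th percentile, with a ratio of 0.060 (-0.30 to 0.40). The difference between the sections was not tested. The median of all genes between these classes was 0.31 in sham, 0.21 in SBP and 0.24 in I/R. The Atf5 intervals contained the median of their section in all 3 sections. So did the Asns intervals in sham and I/R and the Phgdh interval in I/R, while those of Atf4, Psat1 and Mthfd2 lay above it in every section. The ratios of Ddit3, from -0.24 to 0.26, and of Shmt2, from 0.030 to 0.30, had intervals that reached 0 in all sections. Without mitochondrial genes, however, Ddit3 in I/R lay below 0, at -0.37 (-0.66 to -0.080). At the 90th percentile of sham, Ddit3 and Shmt2 in SBP lay above 0, at 0.32 (0.0047 to 0.63) and 0.37 (0.046 to 0.68). Trib3 and Sesn2 had fewer than 50 UMIs in sham and in SBP. Counted over the genes with at least 50 UMIs, 5 of 8 were past the fold in sham, where 28.3% of all such genes were, 4 of 10 in I/R, where 13.6% were, and 4 of 8 in SBP, where 16.6% were.

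**Figure D3:**
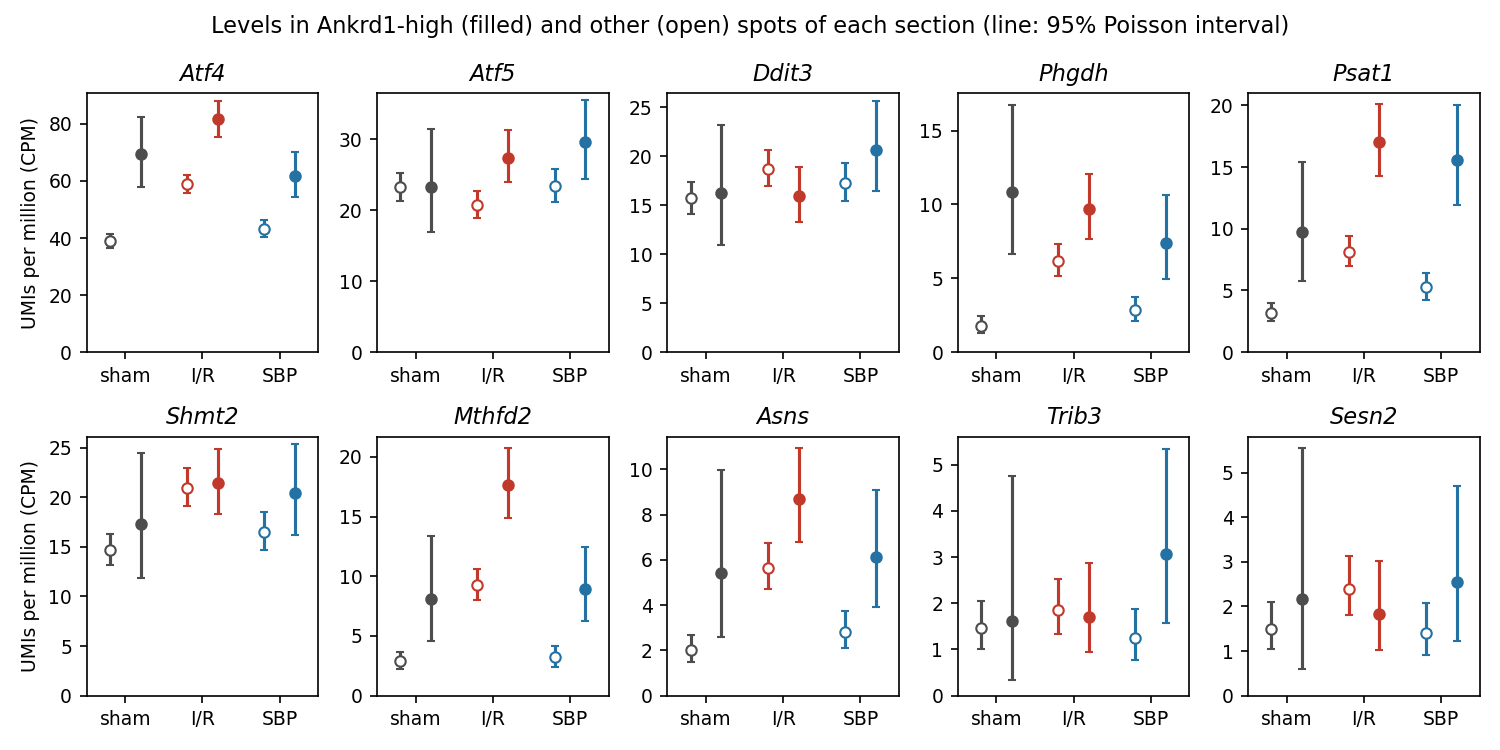
Filled points give the level of each gene in CPM in Ankrd1-high spots and open points that in the other spots of each section, with lines for the 95% Poisson interval. Phgdh, Psat1, Mthfd2 and Asns lie higher in the filled points of every section, and their open points lie higher in I/R than in sham and SBP.

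The Ankrd1-high spots differed from the others in depth and makeup. Their median UMIs per spot were 14927 against 10502 in sham, 17348 against 14103 in I/R and 11989.5 against 10453 in SBP, and their mitochondrial share was 45.2% against 48.9%, 40.6% against 45.7%, and 43.9% against 46.9%. Cardiomyocyte markers were lower in Ankrd1-high spots (20035 against 27041 CPM in sham, 16846 against 21564 CPM in I/R, 19009 against 24058 CPM in SBP). The 4 neutrophil markers were higher (58.5 against 24.7 CPM, 269 against 224 CPM and 263 against 82.6 CPM). Other lists differed too. Atrial markers (Nppa, Myl7, Myl4, Sln) were at 522 against 456 CPM in sham, 2442 against 670 CPM in I/R and 2755 against 1081 CPM in SBP. Red blood cell markers were lower in each section (887 against 3044 CPM in sham). Fibroblast markers were higher in sham (1496 against 829 CPM) and I/R and lower in SBP (593 against 682 CPM). The part of these differences in the levels of the 10 genes was not tested.

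Along 5 bins of Ankrd1, set at the 25th, 50th, 75th and 95th percentiles of sham, the sections took different courses. From the lowest bin to the highest the summed level of the 10 genes was 94.9, 102, 103, 123 and 164 CPM in sham and 89.9, 98.6, 115, 146 and 176 CPM in SBP. In I/R it was 83.1, 106, 139, 219 and 203 CPM, and the bin just under the 95th percentile of sham, with 664 spots, held 219 CPM (209 to 229) where the highest bin held 203 CPM (193 to 213). These intervals overlapped slightly. Shmt2 was at 27.4 CPM (23.9 to 31.1) and 21.4 CPM (18.4 to 24.8) in these bins of I/R, and Ddit3 at 20.5 CPM (17.6 to 23.8) and 15.9 CPM (13.3 to 18.9). Psat1 went the other way, at 14.9 CPM (12.4 to 17.7) and 17.0 CPM (14.3 to 20.1), as did Mthfd2 at 16.3 CPM (13.7 to 19.2) and 17.6 CPM (14.9 to 20.7). For each of these genes the intervals overlapped between the bins. In the lowest bin the intervals of the summed level overlapped between the 3 sections.

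**Figure D4:**
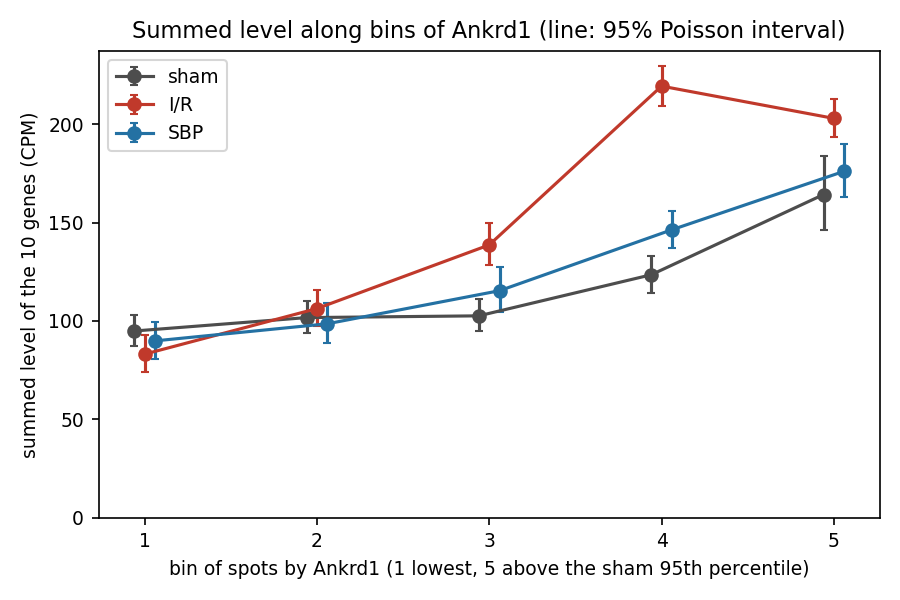
Points give the summed level of the 10 genes in CPM in 5 bins of spots by Ankrd1 per 10000 UMIs, for sham, I/R and SBP, with lines for the 95% Poisson interval. The I/R line reaches 219 CPM in the fourth bin and 203 CPM in the highest, while sham and SBP are at their highest, 164 and 176 CPM, in the last bin.

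The contrast between spots was wider when they were split by injury genes. These are 8 genes of matrix, repair and wound macrophages (among them Timp1, Tgfbi, Spp1, Lgals3, Fn1 and Tnc), and spots whose summed level of them was above 10.3 per 10000 UMIs, again the 95th percentile of sham, were called injury-high. They were 814 spots of I/R (39.1%), 358 of SBP (18.3%) and 112 of sham (5.01%). The summed level of the 10 genes in injury-high against other spots was 264 against 101 CPM in sham, 308 against 91.6 CPM in I/R and 236 against 107 CPM in SBP. The log2 ratio was 1.75 (1.67 to 1.83) in I/R, 1.39 (1.22 to 1.55) in sham and 1.14 (1.02 to 1.26) in SBP. In I/R the injury-high spots held 63.9% of the UMIs of the 10 genes and 34.5% of all UMIs.

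In I/R, 9 of the 10 genes were past the fold and higher in injury-high spots, where 63.1% of the 11408 genes counted were, and Ddit3 was the exception. Trib3 is among the 9 with 29 against 26 UMIs, and its share of spots in I/R was below that of the genes of other organs. The median log2 ratio of all genes between these classes was 0.84 in I/R, 0.63 in sham and 0.50 in SBP. Phgdh was at 16.7 against 2.07 CPM, a log2 ratio of 3.01 (2.51 to 3.54). The ratio in I/R was 2.86 (2.46 to 3.27) for Psat1, 2.71 (2.35 to 3.10) for Mthfd2, 2.67 (2.18 to 3.18) for Asns and 2.51 (1.69 to 3.39) for Sesn2. It was 1.84 for Atf4, 1.53 for Atf5, 1.24 for Shmt2, 1.08 for Trib3 and 0.55 for Ddit3, so that Phgdh, Psat1, Mthfd2 and Asns had the highest ratios and Ddit3, below the median of all genes, the lowest. The contrast was also present in sham, where the class rests on 112 spots and Phgdh was at 18.9 against 1.52 CPM, with 26 UMIs in the injury-high spots.

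Compared within a class of spots, a comparison added after the data were seen, the summed levels of I/R and sham lay closer together than over whole sections. For I/R over sham the summed log2 ratio was 0.60 over all spots, 0.22 (0.067 to 0.39) within injury-high spots and -0.14 (-0.23 to -0.049) in the others. The injury-high class took 5.01% of sham spots and 39.1% of I/R spots, and its makeup differed between them. Fibroblast markers were at 1876 CPM in sham and 1052 CPM in I/R, and neutrophil markers at 212 and 627 CPM. Macrophage and monocyte markers were closer, at 664 and 615 CPM. Among injury-high spots Asns had a ratio of 1.31 (0.30 to 2.55), resting on 8 UMIs in sham, while Phgdh was at -0.18 (-0.78 to 0.47) and Mthfd2 at 0.51 (-0.087 to 1.16). Outside them Mthfd2 had a ratio of 0.71 (0.20 to 1.23), at 3.94 against 2.40 CPM. Atf5, which did not differ over whole sections by more than its counting error, was lower in I/R than in sham outside injury-high spots, at 13.6 against 22.6 CPM with a ratio of -0.73 (-0.94 to -0.51). Within injury-high spots it was at 39.4 against 34.9 CPM, a ratio of 0.17 (-0.26 to 0.63).

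For SBP over I/R the summed ratio was -0.38 (-0.50 to -0.27) within injury-high spots and 0.23 (0.13 to 0.32) in the others, and -0.38 over all spots. Within injury-high spots SBP was lower for Mthfd2, at 12.7 against 25.9 CPM with a ratio of -1.03 (-1.53 to -0.57), for Phgdh at -0.53 (-1.07 to -0.032), for Asns at -0.56 (-1.15 to -0.020) and for Atf4 at -0.46 (-0.64 to -0.28). The median of all genes in this comparison was -0.21. The intervals of Phgdh and Asns contained that median, and those of Mthfd2 and Atf4 lay below it. In the other spots Mthfd2 was again lower in SBP, at -0.58 (-1.13 to -0.038), while Atf5 was higher, at 0.71 (0.49 to 0.94). For SBP over sham the summed ratio was -0.16 (-0.34 to 0.024) within injury-high spots and 0.088 (0.0012 to 0.18) in the others, and 0.22 over all spots. The medians of all genes in these comparisons within a class lay between -0.21 and 0.079.

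Crossing both classes put the highest summed level in spots that were injury-high and not Ankrd1-high. In I/R these 459 spots held the 10 genes at 401 CPM (383 to 419.7), against 235 CPM (222 to 247) in the 355 spots high in both, 123 CPM (109 to 138) in the 124 spots high in Ankrd1 alone, and 87.4 CPM (83.0 to 91.9) in the 1144 remaining spots. The order was the same in sham (282, 234, 136 and 98.7 CPM) and in SBP (274, 201, 154 and 101 CPM), and in sham the intervals of the first pair overlapped. This order is that of the sum and did not hold for each gene. In I/R each gene was higher in spots injury-high alone than in spots high in both. In sham, Phgdh (13.1 against 28.1 CPM), Asns and Mthfd2 went the other way. In SBP, Psat1, Mthfd2, Ddit3 and Trib3 did so, and in both sections the intervals of these genes overlapped. In I/R the 459 spots held 155 of the 204 Mthfd2 UMIs and 108 of the 136 Phgdh UMIs found outside Ankrd1-high spots. In spots high in neither, Mthfd2 was at 2.81 CPM (2.08 to 3.71) in I/R and 2.32 CPM (1.73 to 3.04) in sham. Phgdh was at 1.60 CPM (1.07 to 2.32) and 1.38 CPM (0.94 to 1.96) in these spots. The injury-high spots had fewer cardiomyocyte transcripts, at 13255 against 23998 CPM in I/R, and more of the 6 macrophage and monocyte markers, at 615 against 142 CPM, and of the neutrophil markers, at 627 against 30.0 CPM. In sham the macrophage and monocyte markers were at 664 against 169 CPM and the 5 fibroblast markers at 1876 against 821 CPM. The mitochondrial share was 32.8% against 50.4% in I/R and 36.0% against 49.3% in sham. The part of these cell types and of the mitochondrial share in the levels of the 10 genes was not tested.

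**Figure D5:**
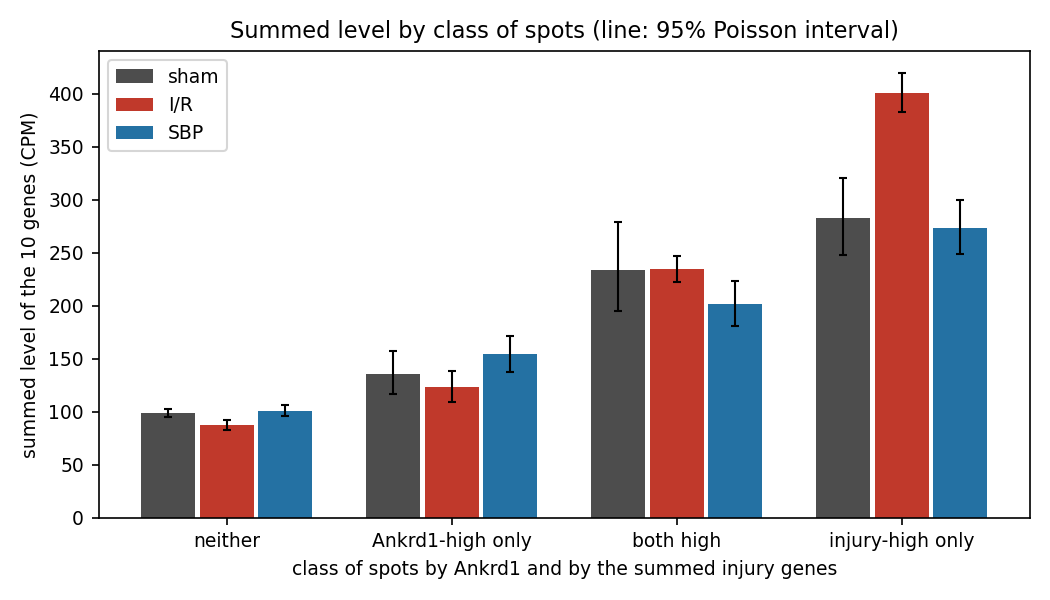
Bars give the summed level of the 10 genes in CPM in 4 classes of spots, crossed by Ankrd1 and by the summed injury genes, for sham, I/R and SBP, with lines for the 95% Poisson interval. The bars climb from the spots high in neither (87.4 to 101 CPM) to those high in the injury genes alone, where I/R reached 401 CPM.

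The other genes of the pathway were taken from lists. Upstream, a list of 9 genes held eIF2α, its kinases and its phosphatase subunits, together with Dele1 and Oma1. Of these, 5 were past the fold and higher for I/R over sham, and Dele1 and Oma1 were not among them. Eif2ak3 (PERK, the ER stress kinase) was at 4.23 against 2.27 CPM with a log2 ratio of 0.90 (0.44 to 1.38), and Eif2ak4 (GCN2, the amino acid sensor) at 3.08 against 1.67 CPM. The others were Eif2s1 (0.71), which encodes eIF2α, and Ppp1r15a (0.73) and Ppp1r15b (0.69), which direct the phosphatase to it. For SBP over I/R, Eif2ak3 alone of this list was past the fold and lower, with a ratio of -0.82 (-1.31 to -0.34), and for SBP over sham Eif2ak4 alone was higher, at 0.78 (0.19 to 1.38).

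Downstream, 7 of 17 other ATF4 target genes counted were past the fold and higher for I/R over sham. Gdf15, a secreted stress signal, was at 0.677 CPM in sham (17 UMIs), 4.63 CPM in I/R (140 UMIs) and 1.29 CPM in SBP (28 UMIs), with a log2 ratio of 2.77 (2.04 to 3.59) for I/R over sham and -1.84 (-2.48 to -1.25) for SBP over I/R. Atf3, an early stress factor, had ratios of 1.59 (1.15 to 2.05) and -1.18 (-1.61 to -0.76), and Aldh18a1, the first enzyme of proline synthesis, of 1.32 and -0.95. Pycr1, the last enzyme of proline synthesis, was higher in I/R (1.44) and in SBP (1.14 (0.48 to 1.83)) than in sham. Cebpb (0.96), Eif4ebp1 (0.79) and Nupr1 (0.68) were the others past the fold for I/R over sham, Bbc3 (-0.61) was the other gene of the 4 lower in SBP than in I/R, and Eif4ebp1 was also higher in SBP than in sham, at 0.71 (0.61 to 0.81).

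Among 7 amino acid transporters counted, 4 were past the fold and higher for I/R over sham. They were Slc7a5 (1.91 (1.41 to 2.44)) and Slc3a2 (0.68 (0.55 to 0.81)), the chains of a leucine transporter, Slc1a4 (0.91) and Slc38a2 (0.61). For SBP over I/R, Slc7a5 was lower at -1.34 (-1.82 to -0.89) and Slc6a9, a glycine transporter, higher at 0.67 (-0.0064 to 1.34), and Slc1a4 was higher in SBP than in sham, at 0.63. The interval of Slc6a9 reached 0. Of 12 cytosolic aminoacyl-tRNA synthetases, 2 were past the fold and higher for I/R over sham, Cars (0.94) and Tars (0.63), where 23.2% of all genes were. For SBP over I/R 0 were lower, where 13.8% of all genes were. Cars was higher in SBP than in sham, at 0.63.

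Of the other serine and one-carbon enzymes, 8 of 15 counted were past the fold and higher for I/R over sham. Psph, which completes serine synthesis after Phgdh and Psat1, was at 5.75 against 2.91 CPM with a ratio of 0.99 (0.58 to 1.40), and Mthfd1l, the mitochondrial formate synthetase, at 4.83 against 1.63 CPM with a ratio of 1.56 (1.06 to 2.10). Tyms (1.28), Mthfs (0.79), Mthfd1 (0.65), Sfxn1 (0.64) and Gldc (0.65 (-0.19 to 1.54)) were also among them, with an interval that reached 0 for Gldc. Tyms serves thymidylate synthesis and is known as a gene of dividing cells, and it was also lower in SBP than in I/R, at -1.73 (-2.13 to -1.36). Mthfd1l (-0.95) and Mthfs (-1.01) were lower in SBP than in I/R as well, Aldh1l1 was higher (0.62), and Mthfd1l was higher in SBP than in sham (0.61).

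The lists of organelle stress outside the ATF4 arm differed from each other. Of 6 mitochondrial chaperones and proteases (Hspd1, Hspe1, Hspa9, Lonp1, Clpp, Trap1), 0 were past the fold in any comparison of whole sections, and their median log2 ratio for I/R over sham was 0.073, or -0.16 with TMM factors. Of 10 ER stress genes of the IRE1 and ATF6 arms, 8 were past the fold and higher for I/R over sham, among them Creld2 (1.75 (1.54 to 1.96)), Sdf2l1 (1.35), Manf (1.22 (1.12 to 1.32)) and Hspa5, the chaperone BiP (0.72 (0.68 to 0.76)). The others were Edem1 (0.95), Pdia4 (0.80), Hsp90b1 (0.70) and Xbp1 (0.62). For SBP over sham 7 were past the fold and higher, with Hspa5 at 0.91 (0.86 to 0.95) and Manf at 1.01 (0.90 to 1.12), beside Sdf2l1 (1.32), Creld2 (1.32), Pdia4 (0.71), Hsp90b1 (0.69) and Dnajb9 (0.64). For SBP over I/R Edem1 alone was past the fold, at -0.74 (-0.92 to -0.56), and the median of this list was -0.060, or 0.097 with TMM factors, where that of the 10 genes was -0.48 and -0.32. With TMM or median-of-ratios factors 0 genes of this list, Edem1 included, were past the fold for SBP over I/R.

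The backgrounds given above apply to these lists as well, with all UMIs as denominator. They were 23.2% higher for I/R over sham, 13.8% lower and 1.95% higher for SBP over I/R, and 5.31% higher for SBP over sham. With TMM factors, where 13.0% of all genes were higher for I/R over sham, the number higher was 2 of 9 for the eIF2α list, 5 of 17 for the other targets, 2 of 7 for the transporters, 1 of 12 for the synthetases, 4 of 15 for the serine and one-carbon list and 4 of 10 for the ER list. The medians of these lists for I/R over sham, with all UMIs as denominator, were 0.69, 0.53, 0.61, 0.48, 0.64 and 0.76 in that order, and they were above 0 as well without mitochondrial genes, with TMM factors and with median-of-ratios factors. With TMM factors 1 gene of the eIF2α list, 2 other targets and 1 transporter were past the fold and lower for I/R over sham. The remaining lists had 0 such genes, where 9.12% of all genes were lower. For SBP over sham the transporters (Slc1a4), synthetases (Cars) and serine and one-carbon enzymes (Mthfd1l) each had 1 gene past the fold and higher. That gene was no longer past it without mitochondrial genes, with TMM factors or with median-of-ratios factors.

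The genes whose course was most like that of the 10 genes added up were sought among 3128 genes with 500 or more UMIs per section, by the Pearson correlation of log2(CPM + 1) over 15 points, the 5 bins of Ankrd1 in the 3 sections. They were Tmed2, a cargo receptor of the early secretory path (r of 0.987), Ywhab (0.986), Rpl4 (0.986), Hnrnpu (0.985) and Rpsa (0.984). The points share sections, depth and the bins themselves, so these values are a description.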

How the data were processed

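Visium libraries of 1 sham, 1 I/R and 1 SBP heart section were used. The authors deposited unnormalized counts of UMIs per gene and spot, made per the labels with Space Ranger 1.3.0 on mm10. The methods text of the study gives a different release of the program and a human genome. Gene positions come from GENCODE M21, which holds 32158 of the 32285 identifiers. A spot needed at least 200 detected genes, which removed 3, 1 and 2 spots. UMIs were summed over spots, and all UMIs of those spots were the denominator. The 10 genes, the gene lists and the rule by which list genes are named (at least 50 UMIs and past 1.5-fold) were chosen with earlier results of these data known. Some genes that count in a list are not reported here by name. Pairs of sections share 1207 to 1568 barcodes, since slides carry a common barcode set. The thinning depth is the 10th percentile over all spots, rounded down to a multiple of 500. Ratios and their intervals were checked on simulated Poisson counts. These counts held no differences between animals, section planes or spots, so the check covers counting error only. Neither clustering nor doublet calling was run. Alternatives were UMIs without mitochondrial genes, TMM factors (edgeR 4.0.16, R 4.3.3), median-of-ratios factors, spots weighted equally, other filters on spots and UMIs, leaving out the top 1% of spots, other folds, other measures and thresholds of the region, and other thinning depths. Python 3.11.15, numpy 2.4.6, scipy 1.17.1 and matplotlib 3.10.9 were used.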

Additional observations from a re-analysis of the deposited data

How the results depend on the processing

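No paired analysis was possible because no condition has more than 1 section. The summed log2 ratio of I/R over sham (0.60) was 0.48 without mitochondrial genes, 0.37 with TMM factors, 0.36 with median-of-ratios factors and 0.84 when spots were weighted equally. That of SBP over I/R (-0.38) was -0.22 with TMM factors, -0.22 with median-of-ratios factors and -0.48 with equal weights, and that of SBP over sham (0.22) was 0.35 with equal weights. Ddit3 for I/R over sham (0.19) turned to -0.039 with TMM factors and -0.047 with median-of-ratios factors. The number of genes lower in SBP than in I/R (3) was 5 with equal weights, 6 after leaving out, gene by gene, the 1% of spots richest in it, and 1 at 2-fold. In scarce genes that 1% held much of the signal, 67.6% of the Trib3 UMIs in SBP for example.

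Within injury-high spots, an alternative added after the data were seen, the summed ratio of I/R over sham was 0.22 and that of SBP over sham turned to -0.16, as did, of the genes whose whole-section interval lay on 1 side of 0, Ddit3 (-0.13) and Phgdh (-0.18) for I/R over sham and Atf4 (-0.22) and Phgdh (-0.72) for SBP over sham. With whole-section intervals that reached 0, Trib3 (-0.068), Sesn2 (-0.42) and Atf5 (0.17) changed sign for I/R over sham, Mthfd2 (-0.52, from 0.38), Ddit3 (-0.12) and Sesn2 (-1.05) for SBP over sham, and Atf5 (-0.14), Trib3 (0.19) and Ddit3 (0.0014) for SBP over I/R. Outside them the summed ratio turned to -0.14 for I/R over sham and to 0.23 for SBP over I/R, and was 0.088 for SBP over sham. There Atf4 turned to -0.12 for I/R over sham, and Atf4 (0.16), Phgdh (0.053), Psat1 (0.46) and Shmt2 (0.094) turned for SBP over I/R. Sesn2 (-0.56 and 0.62) also changed sign in both comparisons, as did Trib3 for I/R over sham (-0.082) and SBP over sham (-0.13), Ddit3 for SBP over I/R (0.13) and Atf5 for SBP over sham (-0.013). The cause was not tested.

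The summed ratio of Ankrd1-high over other spots of I/R (0.41) was 0.60 at the 90th and 0.24 at the 99th percentile of sham and 0.28 without mitochondrial genes. With the injury genes in place of Ankrd1 it was 1.75 in I/R, 1.39 in sham and 1.14 in SBP. At 3000 UMIs the shares of sham, I/R and SBP spots with any of the 10 genes were 26.5%, 37.3% and 31.5%, and unthinned 64.7%, 80.2% and 68.9%. Of the remaining values, 53 of the summed ratios, counts and shares and 333 of single genes moved by less than the counting error (counts by less than 1.5 times), and 74 of single genes moved further. Of these 74, 12 also changed sign, from a value whose own interval reached 0, and so did 25 of those 333. Atf5 for I/R over sham, for example, went from -0.046 to 0.23 with equal weights. Differences between animals and section planes are part of every ratio, and Trib3 and Sesn2 carry wide intervals.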
